A study of Mus musculus with 2 samples.

Results

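The 38 genes described here encode proteins of homologous recombination, of the Fanconi anaemia pathway, of mismatch repair and of the DNA damage and replication checkpoint. They were taken as a list of gene symbols grouped by function, by a rule that names no measured value, but they were chosen with earlier results of these data known. Each of the 38 was on the array, by 63 probes in all, and each was well above background in both cell types, among 15515 named genes that were well above background in at least 1 of them. RNA was measured on 1 Agilent mouse expression array for primary macrophages and 1 for self-renewing macrophages. The primary macrophages came from bone marrow of C57BL/6 mice, cultured on uncoated dishes with 100 ng/ml recombinant human M-CSF and labelled as day 5. The self-renewing macrophages came from the same kind of culture, with the same M-CSF, after passage 4. No transgene, deletion or transformation is named for either cell type, and each array held RNA of a bulk culture, not of a clone. Time in culture, passage and array go together with the cell type, as does sex by the sex-linked genes given below. Their parts in a difference cannot be told apart.

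Homologous recombination repairs a DNA double-strand break by copying the sister chromatid. The ends are first cut back to single strands, a filament of recombinase is then loaded with the help of the BRCA proteins, and the filament invades the intact duplex. The Fanconi proteins act where a crosslink between the strands stops a replication fork: a core complex attaches ubiquitin to the FANCI and FANCD2 pair, and the later steps hand the lesion to recombination. The checkpoint kinases ATM and ATR sense breaks and stalled forks and act through CHK2 and CHK1 to hold the cell cycle. Since sister chromatids exist only after replication, many of these genes are known to be expressed most in dividing cells, and macrophages grown with M-CSF divide during culture.

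Values are log2 intensities relative to the 75th percentile of all gene probes of the same array, so that 0 is the intensity of that percentile, 434 on the primary and 446 on the self-renewing array. Differences are self-renewing minus primary macrophages on the log2 scale, where -1 is 2-fold lower. There was 1 array for each cell type, so no difference has a replicate check and none was tested. The scanner software estimates an error for each spot, which gave 0.20 to 0.21 log2 for the difference of a gene described here and covers the array measurement only. Both samples are labelled male. Yet Xist, the RNA of the silenced X, was detected on the primary array alone, and the Y-linked Eif2s3y, Kdm5d, Ddx3y and Uty on the self-renewing array alone. This is the pattern of female cells on the primary array, at odds with its label, and of male cells on the self-renewing array. A difference between the mice and a difference between the cell types cannot be told apart. Fancb is the only 1 of the 38 genes on the X chromosome.

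The macrophage identity of both cultures was checked against 10 macrophage markers, which were all well above background on both arrays, with a median difference of 0.34. Of these markers, 8 were higher and 2 lower in self-renewing macrophages, and Mertk, which encodes a receptor for dying cells, was 4.68-fold higher, while Fcgr1, which encodes an Fc receptor, was 3.39-fold lower. Of a list of 10 neutrophil markers, 7 were well above background in primary and 4 in self-renewing macrophages, and their summed signal, in multiples of the 75th percentile, was 104 and 6.45. Of that list, Retnlg was well above background on neither array, and Ly6g was not analysed here because no probe was matched to it. Of 10 markers of early progenitors, 9 were well above background in primary and 4 in self-renewing macrophages, and the summed signal was 5.30 and 1.38. Of these 9 markers, 8 were lower and 1, Meis1, was higher in self-renewing macrophages, by 0.77. The primary sum rested mostly on Ctsg, at a level of 1.80, with every other marker of the list below 0. The self-renewing sum rested mostly on Meis1, so the sums follow single genes and do not count progenitor cells. In bulk RNA, fewer cells of a type and less RNA per cell cannot be told apart, and the part of these other cells in the differences below was not tested.

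Most of the repair and checkpoint genes had a lower signal in the self-renewing macrophages. Their median difference was -0.75, which is 1.68-fold lower, beside -0.02 over all named genes. Of the 38 genes, 33 were lower by any amount, against 52.0% of all genes. The count at least 2-fold lower was 10 of 38, or 26.3%, against 8.38% of all genes and 5.58% of the genes that, like these, were well above background on both arrays. Of the 38, 0 were at least 2-fold higher, against 4.76% of all genes. Beyond the scanner's own error, 29 of the 38 were lower, against 29.9% of all genes, and 1, Nbn, was higher, against 28.0%. The values as scaled by the authors, which raise every difference by the same amount and bring the median of all genes from -0.02 to 0.17, left 4 of the 38 at least 2-fold lower, namely Clspn, Exo1, Chek1 and Rad54l, and a median of -0.56. Of all 15515 genes, that scaling gave 1069 at least 2-fold lower, so the count fell among the 38 and among all genes. It gave 1035 higher, a share of 50.8% lower among these calls. The scaling used here gave 1300 and 739, or 63.8%.

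**Figure D1:**
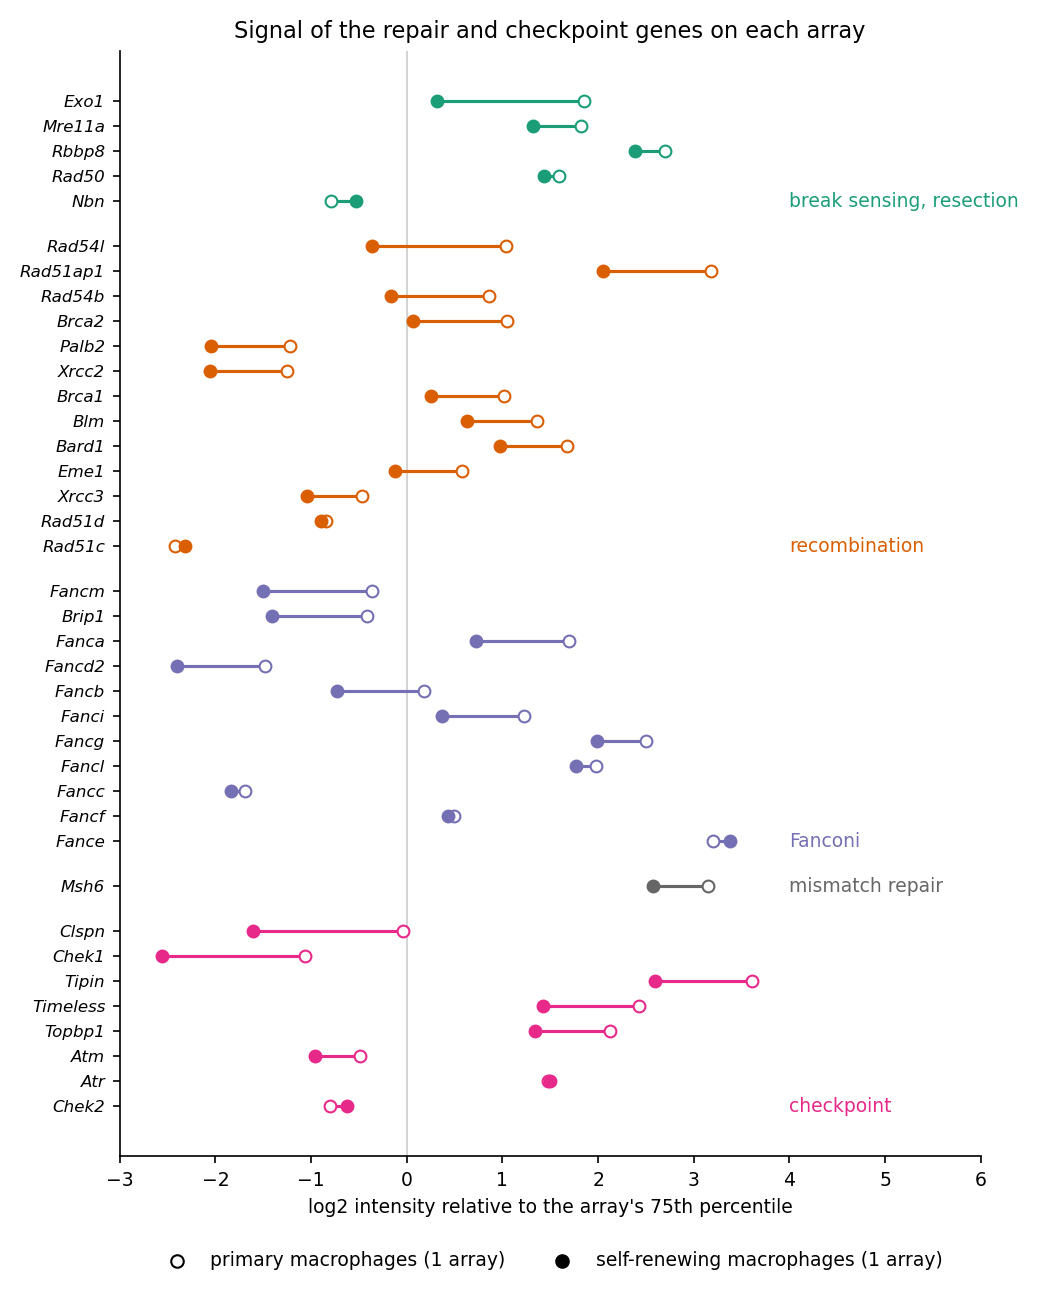
Signal of each of the 38 genes on each array, as log2 intensity relative to the array's 75th percentile, with an open circle for primary and a filled circle for self-renewing macrophages (1 array each) and colours for the role. In 33 genes the filled circle lies to the left of the open one; the lines are longest for Clspn, Exo1, Chek1 and Rad54l.

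The largest difference of the 38, that of Clspn, belonged to a checkpoint gene. Exo1, a gene of end resection, lay within the scanner's error of it, at -1.54. Under some other ways of processing, such as normexp, Exo1 came first. Clspn encodes claspin, the adaptor through which ATR activates CHK1 at a stalled fork. Its signal stood at -0.04 in primary and -1.61 in self-renewing macrophages, 2.96-fold lower, and its second probe differed by -1.43. Chek1 encodes CHK1 itself, and its signal was -1.06 in primary and -2.56 in self-renewing macrophages, 2.83-fold lower, with -1.11 at the second probe. Both genes thus were at least 2-fold lower at each of their probes. Of the 15515 genes, 4.90% had a difference as low as that of Clspn and 5.15% as low as that of Chek1.

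Timeless and Tipin encode the paired proteins that travel with the fork and hold claspin there. The signal of Timeless was 2.43 in primary and 1.42 in self-renewing macrophages, a difference of -1.01 at the probe used and -0.77 at a dimmer one. The signal of Tipin was 3.61 and 2.60, also a difference of -1.01. The partners thus differed from each other by less than the scanner's error, and both lie at the 2-fold threshold within that error. Topbp1, which encodes the activator of ATR, stood at 2.12 in primary and 1.34 in self-renewing macrophages, a difference of -0.79, with -1.03 at its second probe.

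The genes of the other checkpoint kinases differed less. The signal of Atr was 1.48 in primary and 1.49 in self-renewing macrophages, a difference of 0.01 that changed sign under another background correction or scaling. Chek2, which encodes CHK2, stood at -0.80 and -0.62, a difference of 0.18 that lay within the scanner's error. Atm was -0.49 in primary and -0.96 in self-renewing macrophages, a difference of -0.47, with -0.58 at its second probe, both beyond the scanner's error. A difference between 2 genes on the same arrays does not depend on a constant factor by which an array is scaled. It can depend on quantile normalization, on the background correction and on the probe. Chek1 was 3.20-fold lower relative to Chek2 and 2.86-fold lower relative to Atr, Clspn was 2.99-fold lower relative to Atr, and Topbp1 was 1.74-fold lower relative to Atr. On the log2 scale these relative changes, from 0.80 to 1.68 in size, were larger than their combined scanner error of 0.29. Each was smaller with normexp background correction, where Chek1 differed by -1.03, Clspn by -1.22, Topbp1 by -0.75, Chek2 by 0.12 and Atr by -0.07. Chek1 was dim in self-renewing macrophages, at -2.56, and its second probe gave a smaller difference of -1.11. The pairs of genes set against each other here were chosen with their values known.

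The promoters of 4 of these genes are shown because they place motif content beside the difference. Each line holds the 180 bases before the start site, read in the direction of transcription, from the RefSeq table of the GRCm38.p6 assembly. Capitals mark the letters of an E2F site (TTTCCCGC, TTTCGCGC, TTTGCCGC or TTTGGCGC), of a CCAAT box (CCAAT) or of a cell cycle homology region, CHR (TTTGAA or TTCGAA), on either strand, so that a box on the other strand reads ATTGG and an E2F site on the other strand GCGGGAAA or GCGCGAAA.
Clspn, chr4:126556800-126556979, plus strand: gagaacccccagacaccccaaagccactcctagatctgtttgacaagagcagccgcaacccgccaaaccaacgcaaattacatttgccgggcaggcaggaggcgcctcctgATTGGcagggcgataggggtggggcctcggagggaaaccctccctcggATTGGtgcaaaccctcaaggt
Chek1, chr9:36726659-36726838, minus strand: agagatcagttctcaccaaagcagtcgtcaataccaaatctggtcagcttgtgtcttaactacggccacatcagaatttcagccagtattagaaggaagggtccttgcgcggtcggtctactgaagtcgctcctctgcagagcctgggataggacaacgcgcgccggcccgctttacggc
Topbp1, chr9:103305147-103305326, plus strand: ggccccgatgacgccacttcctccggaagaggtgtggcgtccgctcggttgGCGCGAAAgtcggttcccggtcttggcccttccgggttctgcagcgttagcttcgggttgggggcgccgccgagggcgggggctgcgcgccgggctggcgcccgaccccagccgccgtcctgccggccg
Chek2, chr5:110839803-110839982, plus strand: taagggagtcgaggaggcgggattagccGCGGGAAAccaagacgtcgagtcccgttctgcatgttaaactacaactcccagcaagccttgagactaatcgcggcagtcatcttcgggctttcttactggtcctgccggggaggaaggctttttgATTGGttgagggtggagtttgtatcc
The Clspn window holds CCAAT boxes with their first base at -69 and -21 from the start and, in the 50 bases after the start that are not printed, an E2F site. The Topbp1 window holds an E2F site. The Chek1 window, whose gene was 2.83-fold lower, holds no exact match to the letters of the 3 motifs. This does not show that the gene lacks such sites. The Chek2 window, whose gene was not lower, holds both an E2F site and a CCAAT box by these letters. The genes shown were chosen with their values known, and the part of the motifs in the differences was not tested.

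The genes of break sensing and end resection were split between 1 large difference and small ones. Exo1 encodes the exonuclease of long-range resection, and its signal was 1.85 in primary and 0.32 in self-renewing macrophages, 2.90-fold lower, at a single probe. Rbbp8, which encodes the resection factor CtIP, stood at 2.70 and 2.39, a difference of -0.31. Relative to Rbbp8, Exo1 was 2.34-fold lower. Mre11a, Rad50 and Nbn encode the complex that binds the broken ends and recruits ATM. Their differences were -0.51, -0.15 and 0.26. The difference between Nbn and Mre11a, 0.76 in size, was larger than its combined scanner error of 0.29. That error does not cover the spread between probes of 1 gene, an SD of 0.24 log2 among the 38 genes. Nbn and Mre11a had 1 probe each, so whether the subunits themselves differed cannot be told. Nbn, at -0.79 in primary and -0.53 in self-renewing macrophages, was the gene with the highest difference of the 38 at the probes used. With the mean over probes, Fancc at 0.32 and Fance at 0.29 lay above Nbn at 0.26.

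**Figure D2:**
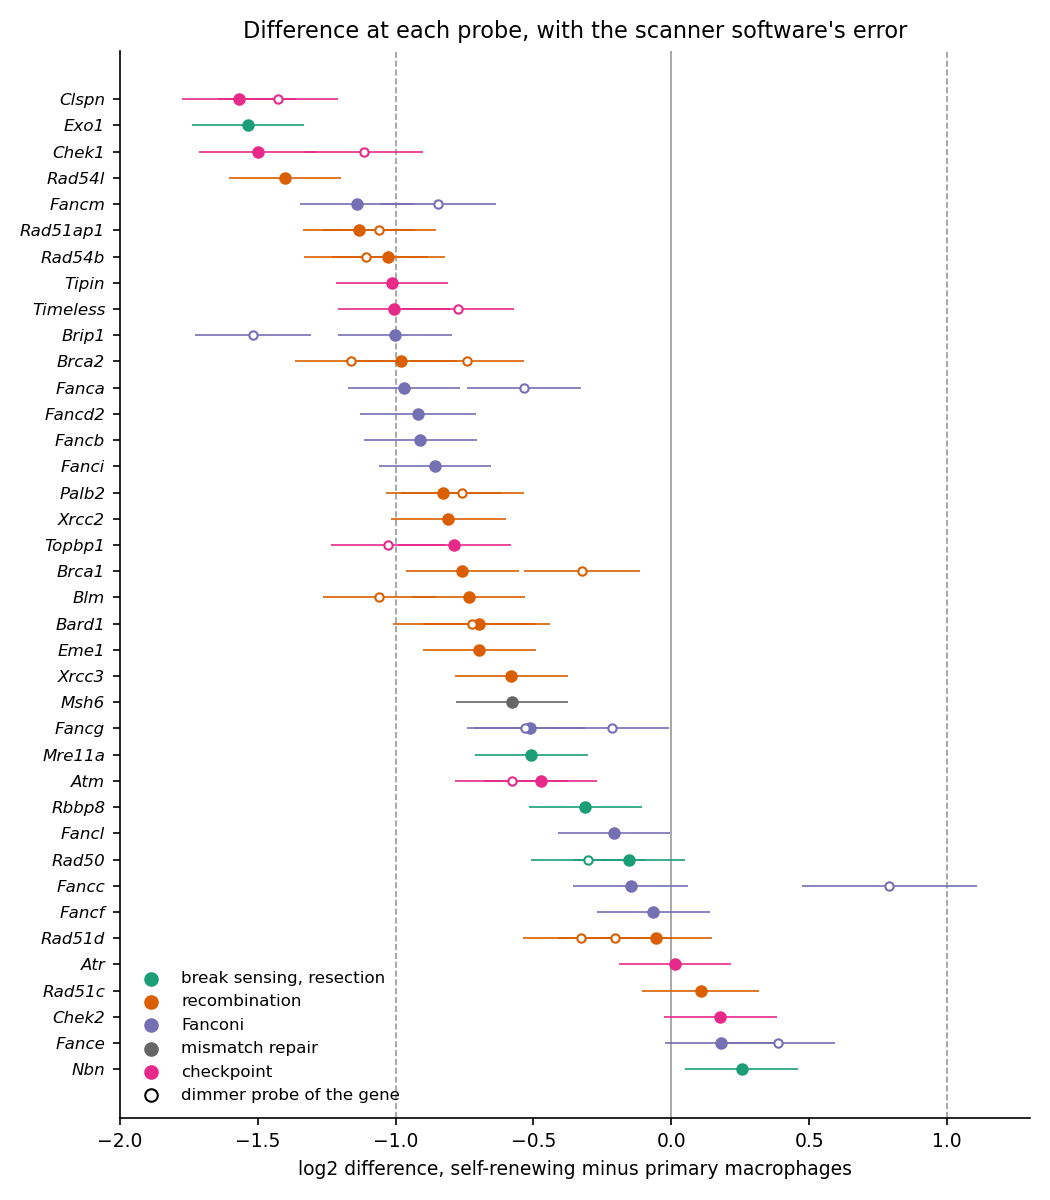
Log2 difference, self-renewing minus primary macrophages, at each of the 61 probes well above background on both arrays, with the genes ordered by the difference used; filled circles are the probes used, open circles other probes of the gene, bars the scanner software's error, and dashed lines 2-fold. The probes of a gene lie on the same side of 0 except for Fancc, and Brip1 and Chek1 have both probes at or beyond -1.

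Among the 13 genes of recombination proper, the median difference was -0.76. At least 2-fold lower were 3, or 23.1%, against 5.58% of genes well above background on both arrays. Rad54l encodes the RAD54 motor protein that drives strand invasion, and it stood at 1.03 in primary and -0.37 in self-renewing macrophages, 2.64-fold lower. Its relative Rad54b stood at 0.86 and -0.17, 2.04-fold lower, with -1.11 at its second probe. Rad51ap1, whose product stimulates the recombinase, stood at 3.18 and 2.05, 2.19-fold lower, with -1.06 at its second probe. The probes of Rad54b and Rad51ap1 were all at least 2-fold lower.

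The BRCA genes lay close together. Brca2, which encodes the loader of the recombinase filament, stood at 1.05 in primary and 0.07 in self-renewing macrophages, a difference of -0.98 with -1.16 and -0.74 at its other probes. Palb2, which encodes the link between the BRCA proteins, differed by -0.83. Brca1 stood at 1.01 and 0.26, a difference of -0.76 with -0.32 at its dimmer probe, and Bard1, whose product is its obligate partner, at 1.67 and 0.98, a difference of -0.70. Brca1 differed from Bard1 by 0.06, and Palb2 from Brca2 by 0.15 in size, both less than the combined scanner error of 0.29.

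The paralogues that assist the filament did not lie together. Xrcc2 stood at -1.25 in primary and -2.06 in self-renewing macrophages, a difference of -0.81, and Xrcc3 differed by -0.58. Rad51d and Rad51c, whose products bind those of Xrcc2 and Xrcc3 in their complexes, differed by -0.06 and 0.11 at the probes used, within the scanner's error. The other probes of Rad51d gave -0.20 and -0.33, the latter beyond that error. Rad51c had a dim signal at its only probe, -2.42 in primary and -2.32 in self-renewing macrophages. Relative to Rad51d at the probe used, which gave the smallest difference of its 3 probes, Xrcc2 was 1.68-fold lower, and relative to Rad51c, Xrcc3 was 1.61-fold lower, both beyond the combined scanner error. Blm, which encodes the helicase that dissolves joined molecules, and Eme1, which encodes a subunit of a nuclease that cuts them, differed by -0.73 and -0.70. The dimmer probe of Blm gave -1.06.

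The promoters of 3 recombination genes are shown in the same form, 2 of them of genes at least 2-fold lower and that of Brca2 just outside.
Rad54l, chr4:116123691-116123870, minus strand: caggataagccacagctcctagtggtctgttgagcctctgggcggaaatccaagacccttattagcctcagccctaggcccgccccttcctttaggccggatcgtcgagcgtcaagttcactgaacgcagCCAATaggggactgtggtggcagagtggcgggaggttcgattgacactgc
Rad51ap1, chr6:126939588-126939767, minus strand: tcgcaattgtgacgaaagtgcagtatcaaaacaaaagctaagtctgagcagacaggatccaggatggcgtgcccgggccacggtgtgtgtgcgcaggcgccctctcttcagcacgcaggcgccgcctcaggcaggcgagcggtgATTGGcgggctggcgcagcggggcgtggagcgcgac
Brca2, chr5:150522441-150522620, plus strand: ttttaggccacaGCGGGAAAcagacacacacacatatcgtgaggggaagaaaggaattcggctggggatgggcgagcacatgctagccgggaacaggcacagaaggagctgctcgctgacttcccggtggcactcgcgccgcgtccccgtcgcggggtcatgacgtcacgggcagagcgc
The printed bases of Rad54l and Rad51ap1 each hold a CCAAT box, at -50 and -36 from the start. Rad51ap1 has another at -230, among the bases not printed. Neither window holds an E2F site by these letters. The Brca2 window holds an E2F site at -168.

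The 11 Fanconi genes had differences from -1.14 to 0.18, with a median of -0.86. Fancm encodes the translocase that anchors the core complex on DNA, and it stood at -0.37 in primary and -1.51 in self-renewing macrophages, 2.20-fold lower, with -0.85 at its second probe. Brip1 encodes a helicase that binds BRCA1, and it stood at -0.41 and -1.41, a difference at the 2-fold threshold, with -1.52 at its second probe. Fancd2 and Fanci, which encode the pair that receives ubiquitin, differed by -0.92 and -0.86, and thus by 0.06 from each other. Within the core complex, Fanca differed by -0.97 and Fancb by -0.91, while Fancg, whose product binds that of Fanca, differed by -0.51 and Fancl, which encodes the ubiquitin ligase, by -0.21. Relative to Fancl, Fancb was 1.63-fold lower. Fanca had a second probe at -0.53 and another that was not well above background on either array.

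Fancc, Fance and Fancf encode a subcomplex of the core, and at the probe used none of them differed by more than the scanner's error. At a dimmer probe, Fancc and Fance were each higher by more than that error. Fancc differed by -0.15 at the probe used and by 0.79 at a dimmer one, and Fancc is the only 1 of the 20 genes with several probes whose probes lay on opposite sides of 0. Fance stood at 3.20 in primary and 3.38 in self-renewing macrophages, a difference of 0.18 with 0.39 at its second probe, and Fancf differed by -0.06. Fancm was 2.11-fold lower relative to Fancf. The mismatch repair gene Msh6, whose product recognises mispaired bases, stood at 3.15 and 2.57, a difference of -0.58.
The promoters of Brip1 and Fancf, chosen with their values known, are set side by side because both hold 3 CCAAT boxes. These lie from -99 to -34 in Brip1 and from -118 to -31 in Fancf, counted from the start. The signal of Brip1 was 2-fold lower, and Fancf differed by -0.06.
Brip1, chr11:86201194-86201373, minus strand: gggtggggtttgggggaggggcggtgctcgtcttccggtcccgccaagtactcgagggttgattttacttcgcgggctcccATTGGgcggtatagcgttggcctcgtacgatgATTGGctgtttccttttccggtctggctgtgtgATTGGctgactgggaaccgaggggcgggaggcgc
Fancf, chr7:51862268-51862447, minus strand: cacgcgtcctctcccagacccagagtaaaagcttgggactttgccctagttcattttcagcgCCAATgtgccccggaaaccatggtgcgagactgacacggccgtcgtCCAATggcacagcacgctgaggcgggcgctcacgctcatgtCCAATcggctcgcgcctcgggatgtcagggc

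Just inside the 2-fold threshold lay Brip1, at a fold of 2.003, and Timeless and Tipin, both at -1.01, and just outside it Brca2 at -0.98 and Fanca at -0.97. The spacing of these 5 genes is smaller than the scanner's error, so which of them count as 2-fold lower is set by the threshold. Clspn, Exo1, Rad54l and Chek1 were at least 2-fold lower under each of the 9 other ways of processing. The genes Atr, Fancc, Fancf, Rad50 and Rad51d changed sign under at least 1 of them, and 29 genes were lower under each.

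**Figure D3:**
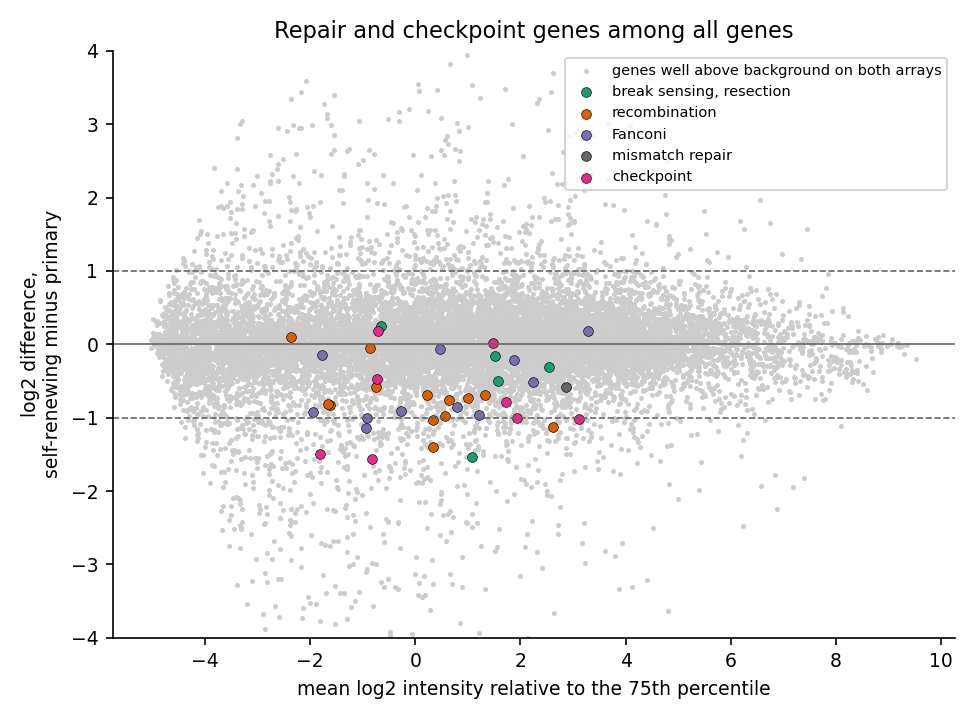
Log2 difference against mean log2 intensity relative to the 75th percentile for the 14003 genes detected on both arrays (grey) and the 38 described genes (coloured by role); dashed lines mark 2-fold, and 80 genes beyond 4 log2 are outside the axis. The 38 genes lie from dim to bright signal and reach from 0.26 down to -1.57.

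Letters of an E2F site were found in the windows of 8 of the 29 genes that the RefSeq promoter table holds, or 27.6%, against 4.13% of the 12336 measured genes with a window and 2.61% of all 27025 genes of the table. E2F factors are known to control genes of the start of replication. The window searched runs from 250 bases before to 50 bases after the start, on both strands. The 8 genes are Bard1, Fancg, Clspn, Chek2, Brca2, Topbp1, Rad51c and Msh6. A CCAAT box, bound by the factor NF-Y, was found in 18 of the 29, or 62.1%, against 42.6% of measured genes. A CHR, known from promoters of genes expressed in mitosis, was found in 3 of the 29 (Bard1, Atr and Eme1), or 10.3%, against 17.4% of measured genes. The median GC content of the windows was 59.7% for the 29 genes and 59.0% for the measured genes. In the list of replication genes described below, 46.4% of the windows held an E2F site, 21.4% a CHR and 60.7% a CCAAT box. In the list of mitosis genes these shares were 9.68%, 77.4% and 74.2%, so that the share with a CCAAT box was similar or higher in lists other than the 29 genes.

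The presence of a motif did not order the differences among the 29 genes. Those with an E2F site had a median difference of -0.64 and a range from -1.57 to 0.18, and those without it a median of -0.76 and a range from -1.50 to 0.18. Those with a CCAAT box had a median of -0.75 and those without it a median of -0.70. Chek1, Timeless, Fanci and Fancl held none of the 3 motifs by these letters, with differences of -1.50, -1.01, -0.86 and -0.21. Rad54b, Rbbp8, Nbn, Xrcc2, Rad51d, Tipin, Fancd2, Exo1 and Rad50 have no entry in the table. A match of letters is a description of the sequence and not evidence that a factor binds there. The lack of a match is likewise not evidence that none binds.

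**Figure D4:**
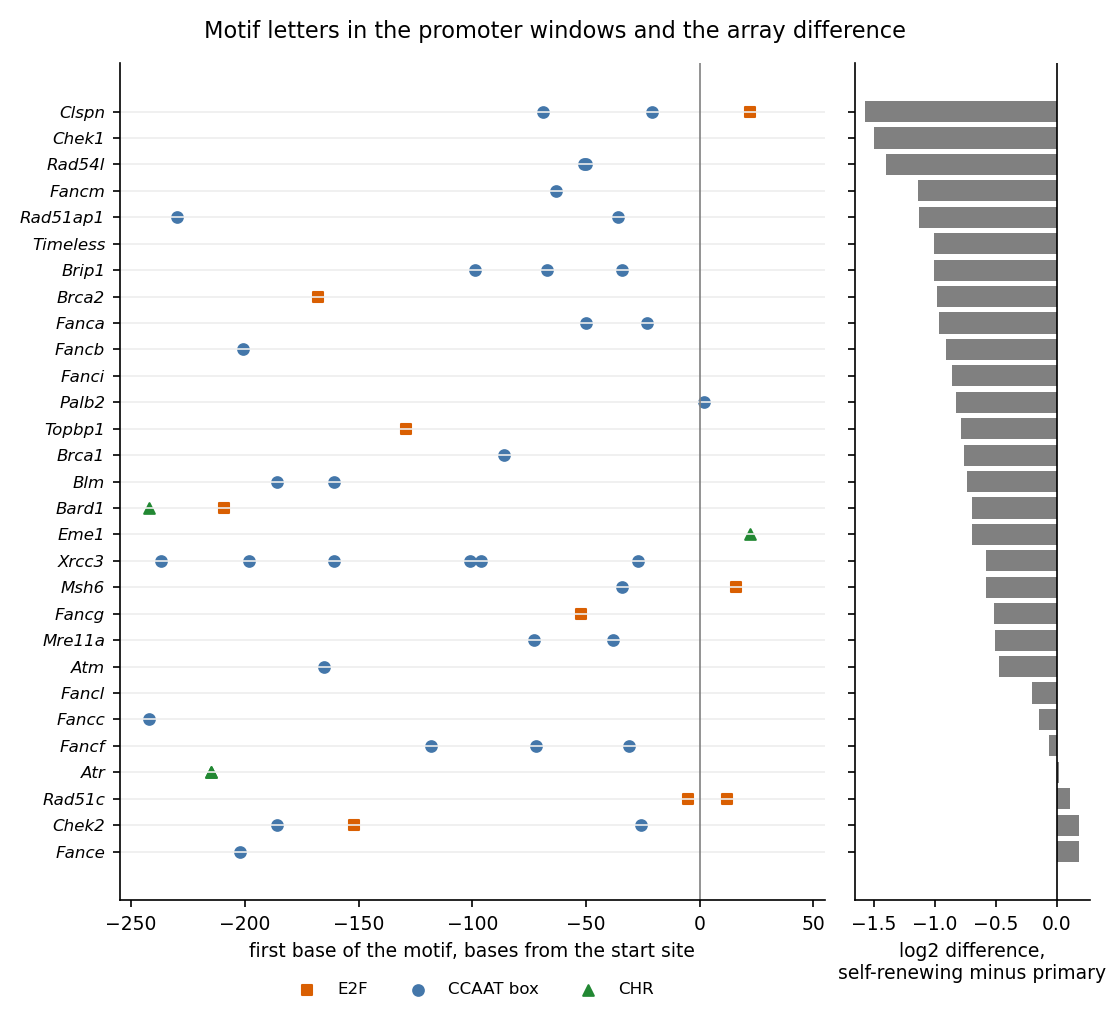
Left, position of the letters of an E2F site, a CCAAT box and a CHR in the windows of 29 genes, as the distance of their first base from the start site in bases; right, the log2 difference of the same gene, self-renewing minus primary. The genes are ordered by the difference, and E2F sites occur both in Clspn at the top and in Chek2 near the bottom.

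The other genes of the same pathways, taken from lists written for this comparison, had smaller median differences. Of 24 other recombination genes, 21 were lower and 1, or 4.17%, at least 2-fold lower, with a median of -0.38. That 1 was Dna2, which encodes a nuclease of end resection, at -0.01 in primary and -1.34 in self-renewing macrophages. Of 12 other Fanconi pathway genes, 8 were lower and 0 at least 2-fold lower, with a median of -0.20. Of 18 other checkpoint genes, 16 were lower and 1, or 5.56%, at least 2-fold lower, with a median of -0.25. That 1 was Wee1, the kinase that holds cells before mitosis, at 0.96 and -0.04. Of 6 other mismatch repair genes, 5 were lower and 0 at least 2-fold lower, with a median of -0.13. At 2-fold, the shares of 4.17% and 5.56%, of 1 gene each, lay near the 5.58% of genes well above background on both arrays. Over all genes, the share was 8.38%. The lists are described by their counts and medians, and no test set them apart.

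End joining seals breaks without a template and works throughout the cell cycle. Its 11 genes had a median difference of -0.04, with 6 lower and 5 higher, and that median became 0.15 with the authors' scaled values. At least 2-fold lower was 1 gene, or 9.09%, against 8.38% of all genes and 5.58% of genes well above background on both arrays. This was Xrcc5, which encodes a Ku subunit, with a difference of -1.25 at 1 dim probe, which stood at -2.75 in primary macrophages. Genes of replication and of mitosis are known to be expressed in dividing cells. All 37 genes of replication licensing and the fork were lower, 20 of them, or 54.1%, at least 2-fold, with a median of -1.03. The largest differences were those of Orc1 at -2.02, Pcna at -1.52, Gins1 at -1.45 and Rrm2 at -1.43, which encode an origin-binding subunit, the sliding clamp, a helicase cofactor and a subunit of ribonucleotide reductase. Of 37 mitosis genes, 36 were lower, with a median of -0.57. At least 2-fold lower were 2, or 5.41%, near the 5.58% of genes well above background on both arrays. These 2 were Racgap1 and Aurkb, both at -1.08, which act in cytokinesis and chromosome segregation. The median of the 38 repair and checkpoint genes lay between the medians of these lists. With the authors' scaled values the medians were -0.84 for replication, -0.56 for the 38 genes and -0.38 for mitosis. That scaling moves every gene by the same amount, so it cannot change their order. By role, the medians ranged over the 9 alternatives from -0.91 to -0.71 for checkpoint, -0.79 to -0.57 for recombination, -0.87 to -0.53 for Fanconi and -0.33 to -0.12 for break sensing and resection. With the probe of the smallest difference for each gene, the Fanconi median of -0.53 lay above that of mitosis, -0.57. The part of the division rate of the cultures in the differences of the repair genes was not tested.

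**Figure D5:**
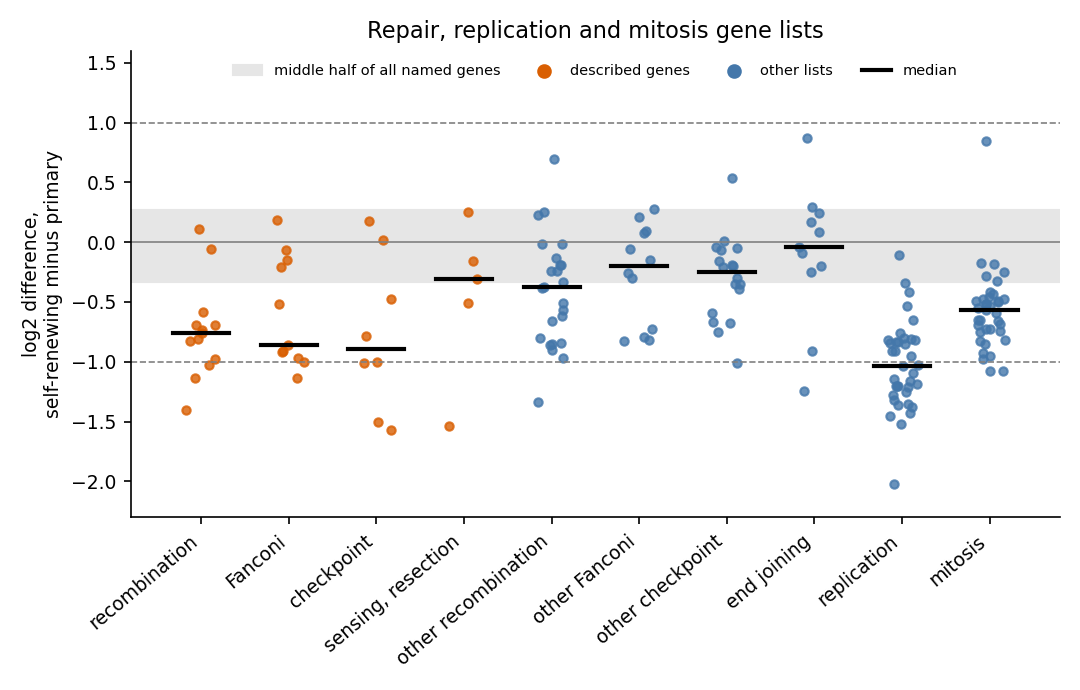
Log2 differences, self-renewing minus primary macrophages, of single genes (points) and list medians (bars) for the described genes by role and for other lists; the grey band spans the middle quartiles of all named genes, and dashed lines mark 2-fold. The described recombination, Fanconi and checkpoint genes have medians from -0.76 to -0.90, with replication at -1.03 and mitosis at -0.57. The medians of break sensing and resection, other Fanconi, other checkpoint and end joining genes lie in the band. Single genes of these lists lie outside it.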

How the data were processed

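RNA of 1 culture of each cell type was labelled with Cy3 and hybridised to an Agilent SurePrint G3 mouse array, both on 1 slide. The authors deposited the intensity of each spot from Feature Extraction 11.5.1.1, background-corrected and detrended for each array separately, and also the same intensities multiplied by a constant for the array (1.07 primary, 1.19 self-renewing). How the constants were chosen is not given in the sources used here. From the deposited intensities, log2 values were computed and set relative to the 75th percentile of the 56598 gene probes of that array. Control spots and the 63 gene spots flagged as outliers on each array were left out, spots of a probe were averaged, and no spot was saturated. Well above background were 34807 probes on the primary and 33095 on the self-renewing array. The number of arrays limits the precision of every value.

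Accessions in a RefSeq table of GRCm38.p6 named 58.3% of probes. A gene was represented by its brightest probe on average among those well above background. Genes detected on 1 array only have a bound. Differences were counted at 2-fold, with no test, as there is 1 array per group. The scanner's spot errors were combined for each difference. The code was tested on simulated data.

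The 38 genes and the lists were chosen with earlier results of these data known. All 38 are named, with the sex-linked genes and the neutrophil markers Retnlg and Ly6g. Genes at least 2-fold changed are named for the repair, checkpoint, replication, mitosis and macrophage marker lists (at most 4 each). For the markers of other cell types such genes are not named, except Ctsg. Further names were chosen after their values were seen. Alternatives were normexp (offset 50) on median signals, quantile normalization, the authors' scaled values, the 75th percentile or the median of probes detected on both arrays, no filter, only genes detected on both arrays, the mean over probes, and the probe of smallest difference. The normexp values came from limma 3.58.1 in R 4.3.3, and all others from Python 3.11.15 (numpy 2.4.6, pandas 2.3.3), with matplotlib 3.10.9 for the figures.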

Additional observations from a re-analysis of the deposited data

How the results depend on the processing

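The direction of the median of the 38 genes held under all 9 alternatives, from -0.76 to -0.56. The count at least 2-fold lower ranged from 4 to 10, and the count at least 2-fold higher was 0 under each. With normexp the count was 6 and the median -0.63, and with the authors' scaled values 4 and -0.56. That scaling moves every gene by the same amount. The cause of the normexp change was not tested. Of 342 values of single genes, 336 moved less than probes of 1 gene differ from each other (SD 0.33 log2), and 6 moved more. Those 6 lie in Chek1, Clspn, Fancc, Brca1 and Fanca. Among probes of the 38 genes that SD was 0.24 log2. Many of the 342 values were kept below it by the settings themselves, so the count says little about stability. Using no filter, or only genes detected on both arrays, left each of the 38 unchanged. Scaling by the authors' constants or by probes detected on both arrays moved them all by the same amount. The choice of probe could not move the 18 genes with 1 probe well above background. Of all 15515 genes, 1300 were at least 2-fold lower and 739 higher. These counts were 750 and 429 with normexp and 1069 and 1035 with the authors' scaled values. Without a filter they were 2336 and 1192 of 22910 genes, and 782 were lower among genes detected on both arrays. The medians of end joining (0.15), base excision repair (0.03) and other mismatch repair genes (0.06) were above 0 with the authors' scaled values, and that of nucleotide excision repair was -0.04 with the mean over probes. The probes with the least signal over background had the larger scanner errors. No paired analysis was possible because no group holds more than 1 array.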

Other observations

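Repair pathways that act on damaged bases rather than on breaks showed no common direction. Of 20 genes of base excision repair, 13 were lower and 7 higher in the self-renewing macrophages, with 0 beyond 2-fold in either direction and a median difference of -0.16 log2. The values ran from -0.72 to 0.98. Of 19 genes of nucleotide excision repair, which removes bulky lesions such as those of ultraviolet light, 9 were lower and 10 higher, with 0 beyond 2-fold and a median of 0.08. The values ran from -0.49 to 0.64.

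Markers of further cell types had median differences from -0.65 log2 (erythroid) to -0.05 (T and NK cells), beside -5.22 for neutrophils. Of 10 markers each, 7 erythroid markers were well above background in primary and 5 in self-renewing macrophages, 8 and 5 for dendritic cells, 6 and 4 for B cells, 7 and 6 for T and NK cells, and 6 and 3 for stromal cells.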
